A study of Mus musculus with 13 samples.

Results

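The genes described here are 37 genes of the connective tissue of the gut wall: collagens, elastic fibre genes, the glycoproteins and proteoglycans laid between the fibres, surface markers of fibroblasts, signals that fibroblasts send, and 2 genes of matrix turnover. They were taken from a fixed list of gene symbols, and a member was measured where a probe set of the array carried that single symbol. Of the 37 genes, 35 were measured, each by 1 probe set, among 19505 genes in all. The other 2, Fbn1 and Pdgfra, were not analysed here. No filter on low values was applied, so all 35 entered every test, although 4 of them (Col5a1, Col14a1, Lox and Pi16) lay among the dimmest 33.3% of the probe sets.

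The tissues came from female FVB mice that carried a mammary carcinoma of the same strain expressing human HER2 (Erbb2 is the mouse counterpart of that receptor), so no group was free of a tumour. The 4 groups were the colon of mice given vancomycin (3 arrays), the colon of mice given no antibiotic (4 arrays), the ileum of mice given vancomycin (3 arrays) and the ileum of mice given no antibiotic (3 arrays). Vancomycin, an antibiotic that stays mostly in the gut lumen and acts on Gram-positive bacteria, was given at 200 mg per litre of drinking water to mice 4 weeks old at the start. The mice were killed at 9 weeks, with tumours of 150 mm3 (the labels leave unclear if those weeks count age or time on vancomycin), and colon and ileum were washed before RNA extraction. The labels do not say that the arrays are separate mice, so the p-values measure only the spread between arrays.

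Fibroblasts build the connective tissue under and between the gut epithelium and the muscle coat. They secrete fibrillar collagens for tensile strength, elastin on a microfibril scaffold for recoil, and glycoproteins such as fibronectin and periostin that cells hold on to. Fibroblasts near the crypt base also send signals, among them R-spondins and the BMP inhibitor gremlin, that keep epithelial stem cells dividing, while BMP ligands from fibroblasts nearer the surface favour differentiation.

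The values were log2 intensities made by RMA, a method that corrects the background, normalises the arrays to one another and summarises the probes of a gene, and a difference of 1 is nominally a doubling. Levels of different probe sets were not compared with each other. Each tissue carried its own markers: Car1, a carbonic anhydrase of the colon surface, lay at 16.05 to 17.42 in the 7 colon arrays against 6.40 to 8.38 in the 6 ileum arrays, and Sis, the sucrase of the small intestine, at 6.03 to 7.16 in colon against 14.67 to 15.47 in ileum. 1 array stood apart. The ileum array of vancomycin replicate 11 had a mean correlation of 0.977 with the others of its group, while every other array had 0.983 or more, and its B cell list averaged 10.25 against 7.36 to 8.13 in the other ilea. It was the highest of the 6 ilea in 27 of the 35 members (25.9% of all probe sets were highest in that array), so the main results that use it are also given without it.

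Without antibiotic, the colon had more RNA of matrix and fibroblast genes than the ileum. Of the 35 members, 16 were higher in colon and 0 were lower at an adjusted p under 0.05 (limma, Benjamini-Hochberg over 19572 probe sets), where 11% of all probe sets were higher and 9.59% lower. The difference was positive in 32 of 35 members and in 54.6% of all probe sets, with a median of 0.63 against 0.0358 over all probe sets. In 21 members the 4 colon arrays all lay above the 3 ileum arrays, a state that 18.1% of all probe sets met. These are RNA levels of whole tissue, in which fewer cells of a type and less RNA per cell cannot be told apart.

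All 4 fibrillar collagens were higher in colon than in ileum without antibiotic. Col3a1, the chain of type III collagen, was at 9.27, 9.34, 9.72 and 9.70 in the colon arrays, against 7.88, 8.01 and 8.19 in the ileum arrays. Its difference was 1.48 ± 0.23 (SE, adjusted p = 0.000314 by limma), and the lowest colon array lay above the highest ileum array by more than the range of either group. Col5a1, a chain of the type V collagen that starts fibril assembly, was higher by 0.99 ± 0.21. Col1a1 and Col1a2, the chains of type I collagen, were higher by 0.63 ± 0.19 and 0.77 ± 0.24. The 2 type I chains had no overlap between the tissues either, at 9.40 to 9.81 in colon against 8.81 to 9.26 in ileum for Col1a1, and at 7.87 to 8.89 against 7.40 to 7.74 for Col1a2.

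None of the 6 other collagens passed the test in that comparison, with differences between 0.11 for Col6a1 and 0.39 for Col6a2 (adjusted p = 0.139 by limma). These are the basement membrane chain Col4a1, the 3 chains of the beaded type VI collagen, Col14a1, which binds to fibrils, and Col15a1, found where basement membrane meets matrix. All 6 differences were above 0. Col6a2 alone had no overlap, at 7.54 to 7.74 in colon and 6.98 to 7.38 in ileum.

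Among the elastic fibre genes, 2 of 7 were higher in colon than in ileum without antibiotic. Loxl1, an oxidase that crosslinks elastin, was higher by 1.07 ± 0.23 (adjusted p = 0.00382 by limma). Mfap5, a microfibril protein, was higher by 0.86 ± 0.23. Eln, elastin itself, lay just outside the threshold at 0.74 ± 0.25 (adjusted p = 0.05001), and Mfap4 at 0.37 did not pass either. Fbln1 differed by 0.43, while Fbln2 and the crosslinking oxidase Lox lay at -0.03 and -0.02, so that the genes of one fibre did not share a value.

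The glycoproteins held the largest differences. Postn, periostin, a matrix protein of fibroblasts under load and in repair, was at 14.42, 14.34, 14.35 and 14.26 in the colon arrays without antibiotic, against 11.78, 12.31 and 11.73 in the ileum arrays. It was higher in colon by 2.40 ± 0.33 (adjusted p = 9.86e-05 by limma), with nearly no spread among the colon arrays. Fn1, fibronectin, was at 12.22, 11.92, 13.08 and 12.84 in colon, against 10.44, 10.68 and 10.46 in ileum, a difference of 1.99 ± 0.39 (adjusted p = 0.00187). Sparc, a collagen-binding protein, and Dpt, dermatopontin, were higher by 1.43 ± 0.40 and 1.09 ± 0.37. The proteoglycans Dcn (decorin) and Lum (lumican), which sit on collagen fibrils, had no overlap but did not pass the test, at 0.53 and 0.82.

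Of the surface and identity genes, 3 of 5 were higher in colon than in ileum without antibiotic. Cd248, endosialin, a surface glycoprotein of fibroblasts and pericytes, was at 10.09, 9.94, 9.85 and 10.32 in the colon arrays, against 8.29, 8.39 and 8.07 in the ileum arrays. The gap between the groups was wider than either group's range, and the difference was 1.80 ± 0.28 (adjusted p = 0.000279 by limma). Cd34, carried by adventitial fibroblasts and also by endothelium, was higher by 1.48 ± 0.30, and Pi16, a marker of adventitial fibroblasts, by 1.06 ± 0.14. Pdgfrb, the receptor for platelet-derived growth factor on fibroblasts and pericytes, and Vim, the intermediate filament of mesenchymal cells, were at 0.55 and 0.38 and did not pass.

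Of the 5 fibroblast signals, only Bmp4, a ligand that favours epithelial differentiation, passed, at 1.33 ± 0.28 higher in colon (adjusted p = 0.00323 by limma). The R-spondins Rspo1 and Rspo3, which strengthen Wnt signals at the crypt base, were at -0.01 and 0.60. Grem1, gremlin, was at 0.19 and Wnt5a, a Wnt ligand of the non-canonical branch, at 0.38. Both genes of matrix turnover were higher in colon, Mmp2, a gelatinase, by 1.35 ± 0.35 and Timp2, an inhibitor of metalloproteinases, by 1.30 ± 0.40.

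**Figure D1:**
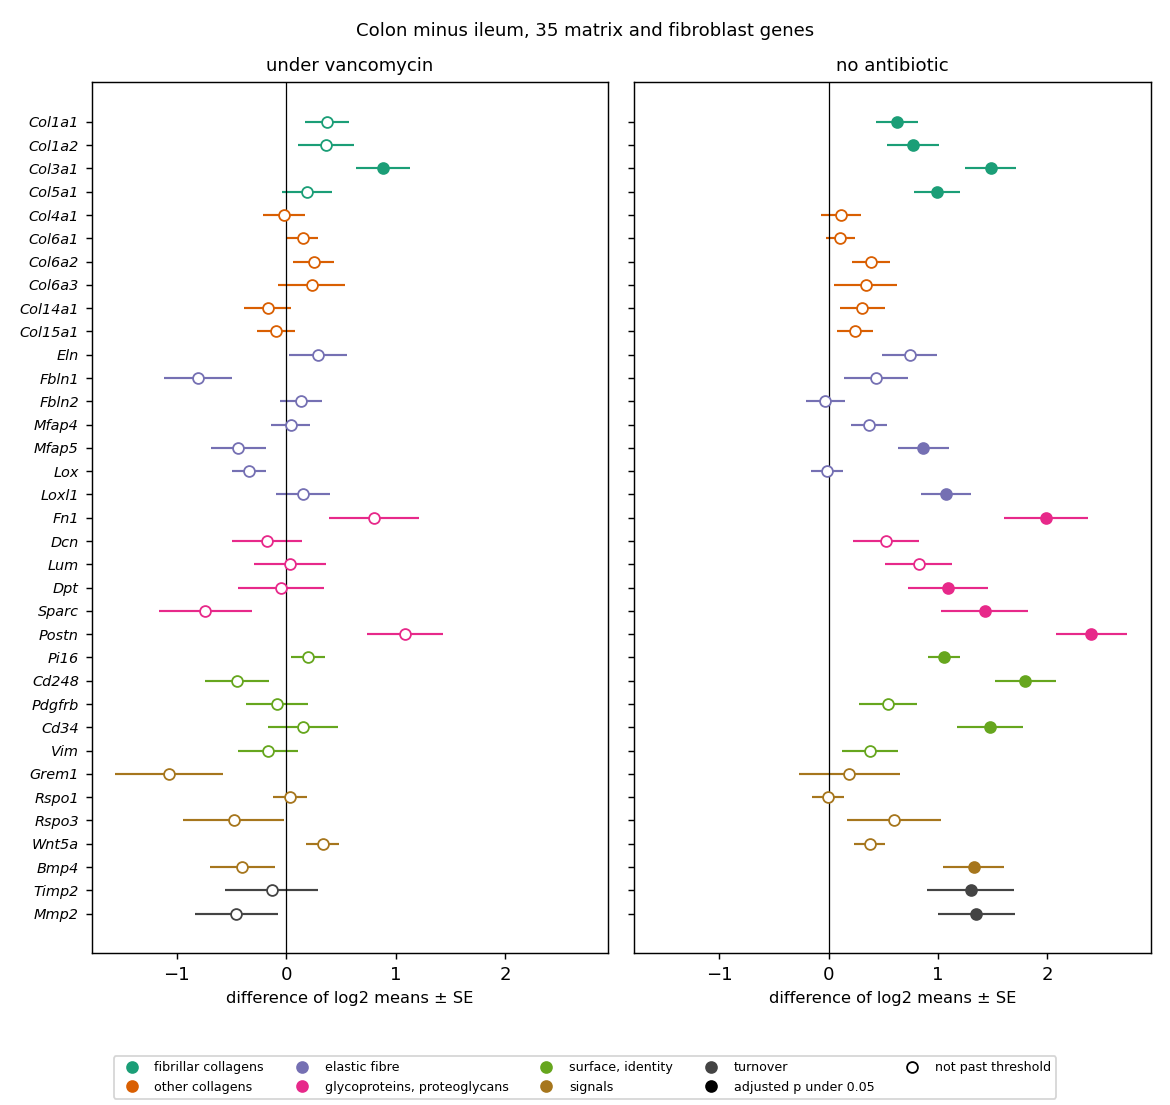
Difference of log2 means, colon minus ileum (x axis), for each of the 35 genes (y axis, coloured by role), with error bars of 1 SE and filled points for an adjusted p under 0.05. Without antibiotic 16 genes are filled, all to the right of 0, and under vancomycin only Col3a1 is.

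The calls differed in how much they rested on single arrays. Of the 16 members higher in colon without antibiotic, 9 passed in each alternative run for them and with each array left out: Col3a1, Col5a1, Loxl1, Fn1, Postn, Pi16, Cd248, Cd34 and Bmp4. Mmp2 no longer passed without ileum replicate 1, Mfap5 without ileum replicate 2 or 3, and Sparc without colon replicate 5 or ileum replicate 2 or 3. Col1a1 no longer passed without colon replicate 1, 3 or 5 or ileum replicate 2 or 3, nor with the replicate number as a block (adjusted p = 0.0683), Col1a2 without colon replicate 3 or 5 or any 1 ileum array, and Timp2 without colon replicate 1 or 5 or any 1 ileum array. Dpt passed only with colon replicate 2 as the array left out. Without ileum replicate 3, 10 of the 35 passed.

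The stretches in front of 4 of these genes are shown as examples of promoters of genes higher in colon. RefSeq promoter windows (GRCm38.p6) matched 20 of the 35 members, with 23 start sites, and 4 short motifs were sought on both strands in the 150 bases before each start. Of the 9 members whose call held throughout, 6 had a window, and the 4 shown were picked because each holds 1 of those motifs, in capitals: TATAAA, the TATA box letters, in Col3a1 and Postn, CCAAT in Pi16, and GGGCGG, the letters of a GC box, in Bmp4. Col5a1, not shown, also held GGGCGG, while Cd34 and the other start site of Postn held none of the 4. Each is written 5′ to 3′ along the gene's strand and ends at the base before the start.
Col3a1, chr1:45311388-45311537, plus strand: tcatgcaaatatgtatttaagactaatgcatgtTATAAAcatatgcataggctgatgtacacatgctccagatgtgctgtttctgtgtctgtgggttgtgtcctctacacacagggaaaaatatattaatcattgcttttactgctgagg
Postn, chr3:54360957-54361106, plus strand: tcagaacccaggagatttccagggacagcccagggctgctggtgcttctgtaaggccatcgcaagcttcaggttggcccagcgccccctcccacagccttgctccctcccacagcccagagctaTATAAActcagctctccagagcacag
Pi16, chr17:29318732-29318881, plus strand: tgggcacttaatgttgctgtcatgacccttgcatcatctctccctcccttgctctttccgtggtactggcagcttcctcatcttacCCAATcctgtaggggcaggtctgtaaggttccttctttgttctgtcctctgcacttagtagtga
Bmp4, chr14:46390670-46390819, minus strand: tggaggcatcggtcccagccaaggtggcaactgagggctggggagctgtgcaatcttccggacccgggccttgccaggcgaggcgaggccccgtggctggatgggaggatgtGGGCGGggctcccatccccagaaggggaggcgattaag
The TATAAA of Postn begins 26 bases before the start and that of Col3a1 117 bases before it, while the CCAAT of Pi16 begins 64 bases and the GGGCGG of Bmp4 38 bases before. Over the 23 windows, TATAAA was in 3 (13%, against 7.57% of all 32851 windows), CCAAT in 5 (21.7%, against 24.5%), GGGCGG in 7 (30.4%, against 28.6%) and TGANTCA, the letters of an AP-1 site, in 1 (4.35%, against 4.24%). A match is a description of letters only. Cd248 was not among the matched members.

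Under vancomycin, the same tissues differed in 1 of the 35 members, where 7.45% of all probe sets were higher in colon and 7.67% lower. Col3a1 was at 9.83, 9.50 and 9.25 in the colon arrays, against 9.26, 8.19 and 8.48 in the ileum arrays. Its difference was 0.88 ± 0.25 (adjusted p = 0.0249 by limma), although the highest ileum array, replicate 11, overlapped the lowest colon array. Of the 35 differences, 18 were positive and 17 negative (55% of all probe sets were positive), with a median of 0.03 against 0.04 over all probe sets. Pi16 alone had no overlap in either direction, at 5.15 to 5.21 in colon and 4.85 to 5.08 in ileum, where 15.3% of all probe sets were higher in colon without overlap.

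Members other than Col3a1 did not pass under vancomycin. Postn differed by 1.08 ± 0.35 (adjusted p = 0.0514 by limma) and Fn1 by 0.80 ± 0.41, both with the higher mean in colon. Cd248 was at -0.45 ± 0.29 and Sparc at -0.74, against 1.80 and 1.43 without antibiotic, and Fbln1 was at -0.80 and Grem1 at -1.07, against 0.43 and 0.19. These 4 had the higher mean in ileum under vancomycin, and without ileum replicate 11 they were at -0.17, -0.50, -0.87 and -0.48. Without ileum replicate 11, 4 members were higher in colon: Col3a1 (1.19, adjusted p = 0.000762), Postn (1.54, adjusted p = 0.00108), Fn1 (1.40, adjusted p = 0.0029) and Col1a1 (0.62, adjusted p = 0.0214). In that run, 1973 of all 19572 probe sets were higher in colon and 1975 lower. The call on Col3a1 was lost without colon replicate 11 or 13 or ileum replicate 13 or 14, and whether the tissue differences with and without vancomycin differ from each other is the test of the 2 vancomycin effects given further on.

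**Figure D2:**
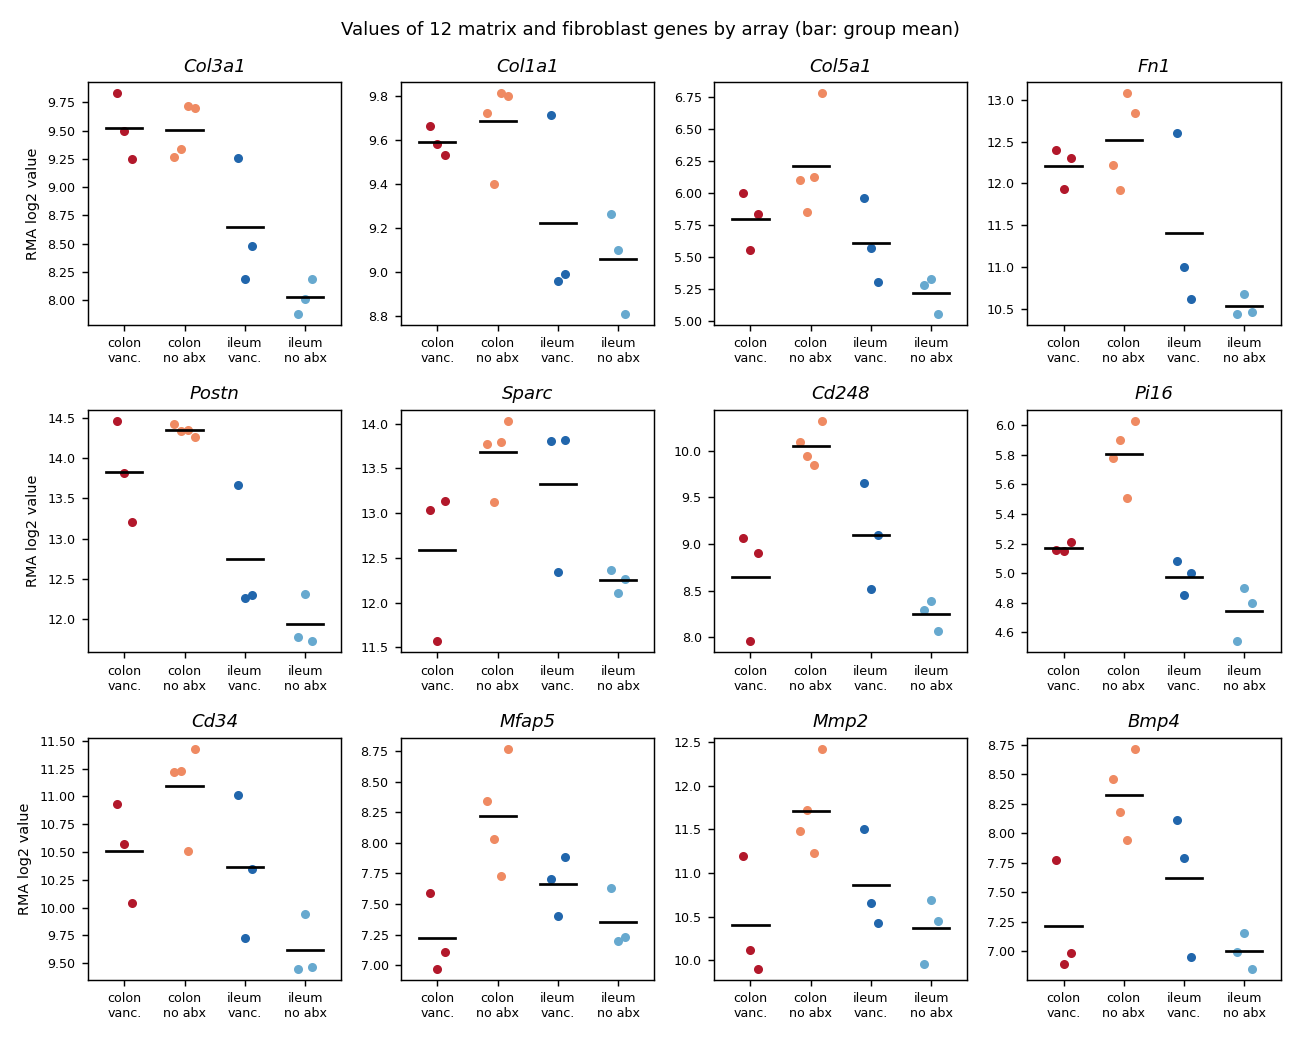
Log2 level (y axis) of 12 of the genes on each array (points), with the group mean as a bar, in colon with vancomycin, colon without antibiotic, ileum with vancomycin and ileum without antibiotic (x axis). Cd248 lies between 7.96 and 9.07 in colon with vancomycin, against 9.85 to 10.32 in colon without antibiotic, and between 8.52 and 9.66 in ileum with vancomycin, against 8.07 to 8.39 in ileum without antibiotic.

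Between vancomycin and no antibiotic in the colon, 0 of the 35 members passed an adjusted p under 0.05 by limma, as did 0.0102% of all probe sets, 2 in number. The differences leaned below 0: 27 of 35 were negative, where 53.1% of all probe sets were positive, with a median of -0.30 against 0.02 over all probe sets. At an unadjusted p under 0.05, 8 members were lower and 0 higher, where 8.11% of all probe sets were lower and 7.76% higher. In 6 members (Cd248, Pi16, Mfap5, Bmp4, Mmp2 and Loxl1) all 3 vancomycin arrays lay below all 4 arrays without antibiotic, as in 5.57% of all probe sets, and in 0 members they lay above, as in 6.72%. The median depended on single arrays. It was -0.16 without vancomycin replicate 13, -0.23 without replicate 5 of the colons given no antibiotic, and -0.455 without vancomycin replicate 11. Vancomycin replicate 13 was the lowest of the 7 colons in 15 members, as in 13.5% of all probe sets. Replicate 5 without antibiotic was the highest in 16 members, as in 15.3% of all probe sets.

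Cd248 had the smallest p of the members in the colon. It was at 9.07, 7.96 and 8.90 in the vancomycin arrays, against 10.09, 9.94, 9.85 and 10.32 in the arrays without antibiotic. The groups were apart by more than the range of the second, and the difference was -1.41 ± 0.28 (adjusted p = 0.0968 by limma). Pi16, a second adventitial fibroblast gene, was at 5.16, 5.15 and 5.21 in vancomycin colons, against 5.78, 5.90, 5.51 and 6.03 in colons without antibiotic (-0.63 ± 0.14, adjusted p = 0.110). Its 3 vancomycin arrays were nearly equal and all below the other 4.

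Mfap5 was at 7.59, 6.97 and 7.11 in vancomycin colons, against 8.34, 8.03, 7.73 and 8.77 in colons without antibiotic (-0.99 ± 0.23, adjusted p = 0.117 by limma). Fbln1 and Loxl1 of the elastic fibre list were at -1.05 ± 0.29 and -0.82 ± 0.23. Bmp4 was at 7.77, 6.89 and 6.98 in vancomycin colons, against 8.46, 8.18, 7.94 and 8.72 in colons without antibiotic (-1.11 ± 0.28, adjusted p = 0.126 by limma). Mfap5 and Bmp4 had no overlap, and in both the colon array of vancomycin replicate 11 was nearest to the colons without antibiotic. Mmp2 was at -1.31 ± 0.35 and Sparc at -1.10 ± 0.40. Of the fibrillar collagens, Col5a1 was at -0.41, below the members' median of -0.30, while Col3a1, Col1a1 and Col1a2 were at 0.02, -0.09 and -0.07. The other collagens lay between -0.26 for Col14a1 and 0.17 for Col6a2.

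Some of these colon differences passed when the set of arrays changed. Without vancomycin replicate 11, Cd248 (-1.62), Fbln1 (-1.51) and Mmp2 (-1.71) passed, with adjusted p of 0.0418, 0.0178 and 0.0490 by limma. In that run 0.557% of all probe sets passed, against 0.0102% with every array in. Without replicate 3 of the colons given no antibiotic, Cd248 (-1.47), Mfap5 (-1.16) and Pi16 (-0.73) passed at an adjusted p of 0.0423 each by limma, as did 1.11% of all probe sets. With every array in, the 8 members at an unadjusted p under 0.05 held adjusted p of 0.0968 to 0.219.

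**Figure D3:**
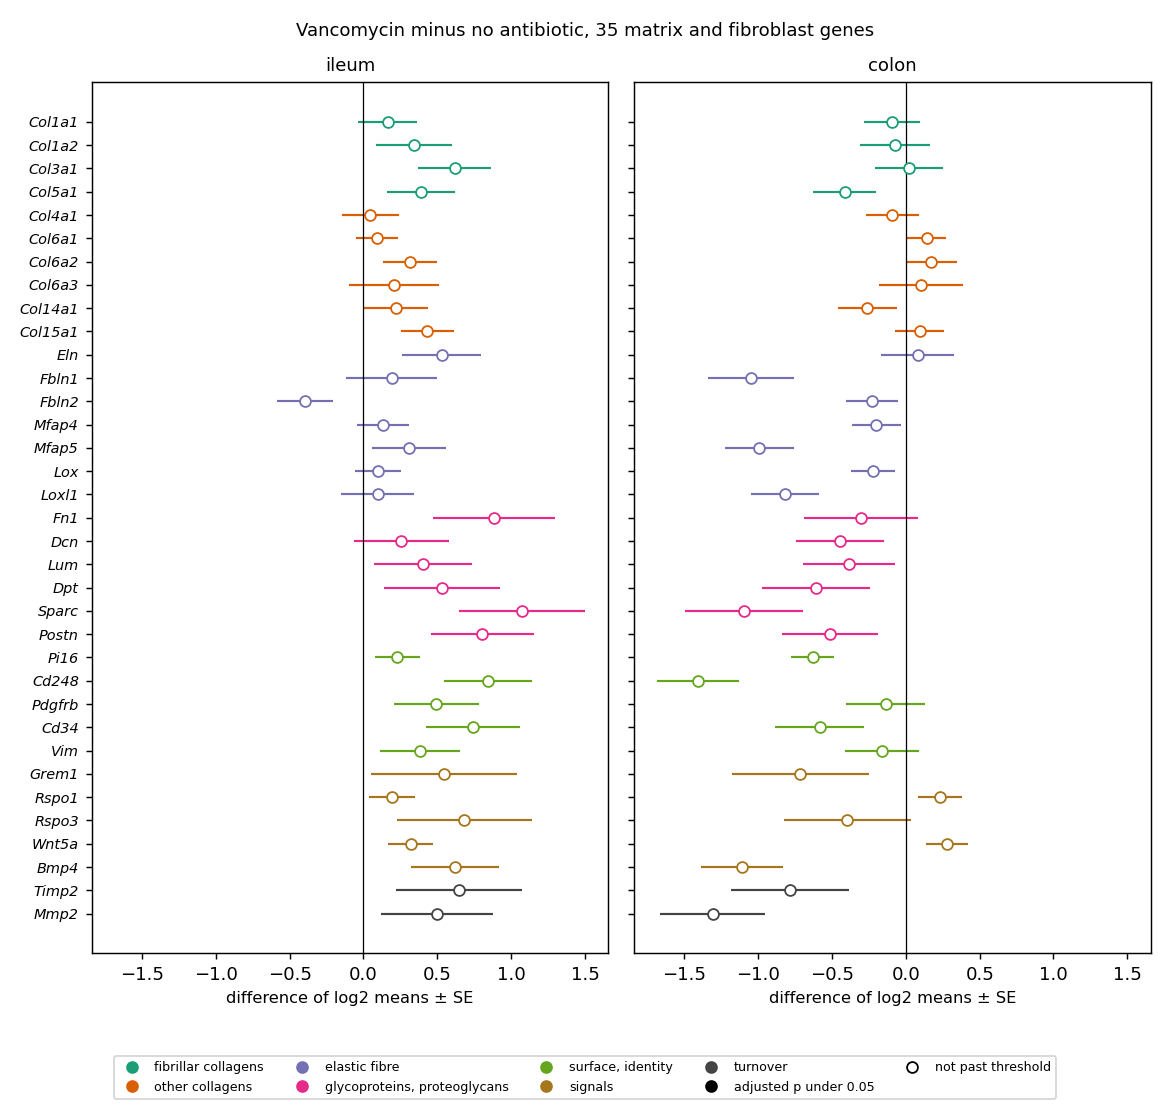
Difference of log2 means, vancomycin minus no antibiotic (x axis), for each of the 35 genes (y axis, coloured by role) in ileum and in colon, with error bars of 1 SE and open points for an adjusted p of 0.05 or more. No point is filled, with 34 of 35 to the right of 0 in ileum and 27 of 35 to the left of 0 in colon.

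Between vancomycin and no antibiotic in the ileum, 0 of the 35 members passed an adjusted p under 0.05 by limma, where 0.536% of all probe sets did (0.0511% higher and 0.485% lower). The differences leaned the other way from those of the colon: 34 of 35 were positive, Fbln2 at -0.40 being the exception, where 53.7% of all probe sets were positive, with a median of 0.38 against 0.0233 over all probe sets. At an unadjusted p under 0.05, 6 members were higher and 0 lower, where 4.97% of all probe sets were higher and 5.13% lower. Cd248 and Wnt5a had no overlap, as did 8.57% of all probe sets in the higher direction. Without ileum replicate 11, the median was 0.18, 27 of 35 differences were positive, and 1 member (Col15a1) had an unadjusted p under 0.05. At that p, 1010 of all 19572 probe sets were higher and 1075 lower in the same run.

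Cd248 was at 9.66, 8.52 and 9.10 in vancomycin ilea, against 8.29, 8.39 and 8.07 in ilea without antibiotic (0.84 ± 0.29, adjusted p = 0.336 by limma, and 0.56 without replicate 11). Sparc was at 13.81, 12.34 and 13.82 in vancomycin ilea, against 12.37, 12.11 and 12.27 in ilea without antibiotic (1.07 ± 0.42, adjusted p = 0.409, and 0.83 without replicate 11). Sparc was high in vancomycin replicates 11 and 14, while replicate 13 sat among the ilea without antibiotic. Col3a1 was at 9.26, 8.19 and 8.48 in vancomycin ilea, against 7.88, 8.01 and 8.19 in ilea without antibiotic (0.62 ± 0.25, adjusted p = 0.415, and 0.31 without replicate 11). Col15a1 was at 7.22, 7.10 and 7.50 in vancomycin ilea, against 6.78, 7.10 and 6.64 in ilea without antibiotic (0.43 ± 0.18, adjusted p = 0.420, and 0.46 without replicate 11). The groups of Col3a1 and Col15a1 met at 1 shared value each, and replicate 11 was the highest array for Col3a1 but not for Col15a1.

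For several of the other members the difference in the ileum came with a wide spread. Fn1 was at 10.62 to 12.61 in vancomycin ilea, replicate 11 being the highest, against 10.44 to 10.68 in ilea without antibiotic, and its difference was 0.88 with every array and 0.28 without replicate 11. Postn was at 0.80 and at 0.35 on the same terms, and Col1a1 at 0.16 and at -0.08. The median SD of the members was 0.425 in vancomycin ilea and 0.171 in ilea without antibiotic, against 0.229 and 0.154 for all probe sets. In the colons it was 0.285 with vancomycin and 0.249 without antibiotic.

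The difference between the vancomycin effects, ileum minus colon, was tested in the same fit. It uses the same 13 arrays as the comparisons above and equals the tissue difference without antibiotic minus that under vancomycin, so it is no separate evidence. Of all probe sets, 0.0307% passed with a difference above 0 and 0.158% with one below 0. Cd248 was the 1 member of 35 that passed. Its effects of 0.84 in ileum and -1.41 in colon differed by 2.25 ± 0.40 (adjusted p = 0.0409 by limma). The call was not stable to the loss of an array: it held without ileum vancomycin replicate 11 (1.97, adjusted p = 0.0355), ileum vancomycin replicate 13 or colon vancomycin replicate 11, and was lost without each of the other 10, with values of 1.91 to 2.38 and an adjusted p of up to 0.151.

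For the other members with small p in that test, the difference was 1.73 ± 0.41 for Bmp4 (adjusted p = 0.166 by limma), 0.86 ± 0.21 for Pi16 (0.198) and 1.30 ± 0.34 for Mfap5 (0.232). Without ileum vancomycin replicate 11 these were 1.49, 0.81 and 1.28, with adjusted p of 0.164, 0.198 and 0.208. In ileum, Bmp4 was at 8.11, 7.79 and 6.95 with vancomycin, against 6.99, 7.15 and 6.85 without antibiotic, so that vancomycin replicate 14 lay among the untreated ilea. Pi16 was at 5.08, 4.85 and 5.0 with vancomycin, against 4.54, 4.90 and 4.80 without antibiotic, and Mfap5 at 7.70, 7.40 and 7.88, against 7.63, 7.20 and 7.23. Both overlapped. Over the 35 members, 32 differences were positive, as in 50.6% of all probe sets, with a median of 0.70 (0.0042 over all probe sets, and 0.40 without ileum vancomycin replicate 11), and 12 were higher and 0 lower at an unadjusted p under 0.05, where 4.12% of all probe sets were higher and 3.89% lower. The 12 held 3 of 5 surface genes, 3 of 7 elastic fibre genes, 2 of 6 glycoproteins, both turnover genes, 1 of 4 fibrillar collagens, 1 of 5 signals and 0 of 6 other collagens.

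Taken by group means over all arrays, 29 of the 35 members were lowest in the ileum without antibiotic and 22 were highest in the colon without antibiotic. The same ranking was not counted over all probe sets or without ileum vancomycin replicate 11, so these counts have no share to be set against. The mean over the 35 was 8.91 to 9.48 in colons with vancomycin and 9.43 to 9.76 in colons without antibiotic. It was 8.93 to 9.65 in ilea with vancomycin, the highest being replicate 11, and 8.74 to 8.90 in ilea without antibiotic. The 2 ileum groups only just missed overlapping, at 8.925 in vancomycin replicate 13 and 8.896 in replicate 2 without antibiotic. The means of the smooth muscle and endothelial lists did not overlap between these groups either, while those of the pericyte and the enteric neuron and glia lists did.

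**Figure D4:**
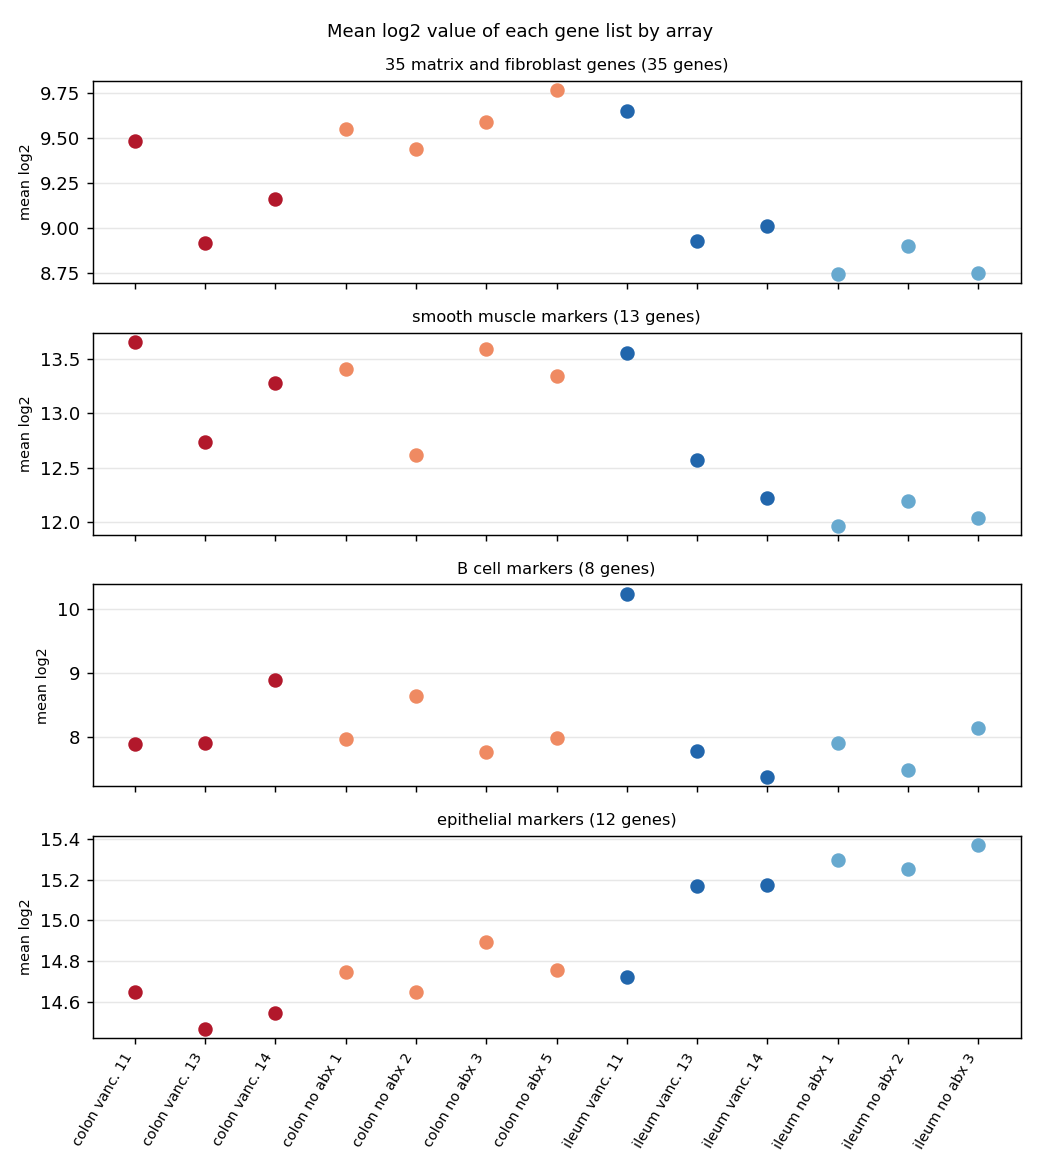
Mean log2 level (y axis) on each array (points) of the 35 genes and of the smooth muscle, B cell and epithelial lists, for colon with vancomycin, colon without antibiotic, ileum with vancomycin and ileum without antibiotic (x axis). In ileum with vancomycin, replicate 11 has the highest smooth muscle mean (13.56) and B cell mean (10.25) and the lowest epithelial mean (14.72) of the 6 ilea.

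Markers of other cells were read in the same comparisons, and some lists held genes that passed while others did not. Without antibiotic, 11% of all probe sets were higher in colon than in ileum and 9.59% lower. Of the smooth muscle genes 10 of 13 were higher in colon (median 1.28), and the list mean was 12.62 to 13.59 in colons against 11.97 to 12.19 in ilea. Of the enteric neuron and glia genes 6 of 12 were higher in colon, and of the pacemaker cell genes 3 of 4, while 6 of 8 adipocyte genes were lower (median -2.14) and 0 of 12 endothelial and 0 of 7 pericyte genes passed. All 12 endothelial differences were nonetheless above 0 (median 0.41), at list means of 7.91 to 8.37 in colons against 7.57 to 7.71 in ilea. Of the pericyte differences, 3 were above 0 and 4 below. Of the epithelial genes 4 of 12 were lower in colon and 0 higher, at list means of 14.65 to 14.90 in colons against 15.25 to 15.37 in ilea, and of the mesothelial genes 2 of 7 were lower. In the ileum, smooth muscle genes had a median difference of 0.78 between vancomycin and no antibiotic (0.37 without replicate 11) with 0 of 13 passing, at list means of 13.56, 12.57 and 12.22 in vancomycin ilea against 11.97 to 12.19 in ilea without antibiotic. The epithelial list was at 14.72 in ileum vancomycin replicate 11, against 15.17 in each of the other vancomycin ilea and 15.25 to 15.37 in ilea without antibiotic. In the colon, the smooth muscle means were 12.74 to 13.66 with vancomycin and 12.62 to 13.59 without antibiotic, with a median difference of 0.03. The epithelial means were 14.47 to 14.65 with vancomycin and 14.65 to 14.90 without antibiotic, with 10 of 12 differences below 0 and 0 passing. In 3 of them the groups did not overlap, as in 5.57% of all probe sets in the lower direction. Under vancomycin, 1 of 13 smooth muscle genes was higher in colon than in ileum, where 7.45% of all probe sets were. Without ileum replicate 11 it was 6 of 13, where 1973 of all 19572 probe sets were higher. The part of these cells in the members' differences was not tested.

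Beyond the 35 members, 167 measured genes of 9 related lists were read in the same way. Without antibiotic 34 of them were higher in colon than in ileum and 8 lower, where 11% of all probe sets were higher and 9.59% lower. Among other glycoproteins 7 of 21 were higher and 0 lower, with 2.22 for Vcan (versican), 2.20 for Thbs4 (thrombospondin 4) and 1.99 for Aspn (asporin). Of the collagen processing genes 3 of 13 were higher, namely Pcolce, which helps to trim procollagen, P4ha1, a prolyl hydroxylase subunit, and Crtap, a partner of prolyl hydroxylation, at 1.42, 1.22 and 1.37. Of the other elastic fibre genes 3 of 14 were higher, Mfap3l, Efemp1 and Ltbp4, and of the other collagens 1 of 15, Col4a2 at 0.48.

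Signals to the epithelium were higher in 6 of 34, among them Frzb, a secreted Wnt inhibitor, at 3.56, and the growth factors Fgf10 and Fgf7 at 1.80 and 1.35. Proteases and their inhibitors split, with 4 of 19 higher, such as Mmp14 at 1.31, and 2 lower, Mmp7, a matrilysin of Paneth cells, at -4.75 and Mmp10 at -1.31. Basement membrane genes split too, with Lamb2 at 1.33 and Agrn at -1.07 among 13. Of 17 genes of the TGF-beta axis, 2 were higher and 2 lower, with Tgfb2 at 1.33 and Tgfbi, a matrix protein, at -3.36. Of 21 other fibroblast markers, 7 were higher, such as Ly6c1 at 2.31, and 3 lower, such as Prrx1 at -1.66.

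Between vancomycin and no antibiotic in ileum, 1 of the 167 passed, where 0.0511% of all probe sets were higher and 0.485% lower. It was Skil, a repressor of TGF-beta signalling and itself one of its target genes, at -1.05 ± 0.21 (adjusted p = 0.0439 by limma). Without ileum replicate 11 it was at -0.95 and did not pass (adjusted p = 0.0855). Nearest to it in ileum was Col4a2, a basement membrane collagen chain, at 0.71 ± 0.15 (adjusted p = 0.0512, and 0.69 without replicate 11), while its partner Col4a1, a member, was at 0.05. In colon 0 of 167 passed, 5 being higher and 13 lower at an unadjusted p under 0.05, where 7.76% of all probe sets were higher and 8.11% lower. Bmp7, a ligand related to Bmp4, was nearest at -0.78 ± 0.17 (adjusted p = 0.0968 by limma), at low group means of 4.89 with vancomycin and 5.68 without antibiotic. Ltbp4, which tethers latent TGF-beta and joins elastic fibre assembly, was at -1.13 and Pmepa1, a TGF-beta target, at -0.96. In the test of the difference between the effects 0 of 167 passed. At an unadjusted p under 0.05, 32 were higher and 4 lower, where 4.12% of all probe sets were higher and 3.89% lower. Without ileum vancomycin replicate 11 the counts were 20 and 5, beside 927 and 923 of all 19572 probe sets. Under vancomycin, 8 of the 167 were higher in colon than in ileum and 13 lower, where 7.45% of all probe sets were higher and 7.67% lower. Without ileum replicate 11 the counts were 20 and 14, beside 1973 and 1975 of all 19572 probe sets. With all arrays, Thbs4 was at 3.03 and Frzb at 3.25 among the higher, and Tgfbi at -3.66 and Mmp7 at -4.77 among the lower.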

How the data were processed

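RNA of washed colon and ileum was hybridised to 1-colour Affymetrix arrays, 13 in all. The authors deposited log2 intensities, and per the submitters' processing notes RMA and Affymetrix Expression Console 1.4.1.46 were used. The deposited table held 28846 rows with values of 3.01 to 18.25. Scanner files, detection calls and background levels were not used here. Probe sets were named from the platform annotation, and 19572 carried 1 gene symbol. Groups came from the source names of the samples, and replicate numbers from their titles.

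One model of 4 group means was fitted to all 13 arrays with limma 3.58.1 in R 4.3.3 (lmFit and eBayes), which gave 5 comparisons, each adjusted by Benjamini-Hochberg over 19572 probe sets with a threshold of 0.05. The fit was also run on simulated data that held no outlying array, so that run says nothing on the calls made here. The few arrays per group limit the precision. A gene with several probe sets was taken at the one with the highest mean. Values per array are given for members that passed a comparison with vancomycin, the 4 members with the smallest p in each such comparison, and the 4 largest called differences between tissues without antibiotic. The members and the gene lists were chosen with earlier results of these data known. Alternatives were another centring, array weights, a trended and robust prior, only the groups compared, no dim probe sets, each array left out, and the replicate number as a block.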

Additional observations from a re-analysis of the deposited data

Results flagged for a closer look

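Wnt5a in the colon without antibiotic was at 7.26 in replicate 5, while the other 3 arrays lay at 7.43 to 7.46, so that replicate 5 stood far from the rest of its group. The mean of the 5 fibroblast signals in the colon without antibiotic was 8.89 in replicate 1, against 8.71 to 8.73 in the other 3. These were 2 of 42 values looked at in that group of 4, and chance alone gives such a flag in about 5% of groups. For Cd248, the ileum effect of vancomycin minus the colon effect was 2.25 on the log2 scale (adjusted p = 0.0409 by limma). That call was lost in 10 of the 13 runs with 1 array left out, and the effect within each tissue did not pass.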

How the results depend on the processing

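No alternative turned the direction of a member that passed. The median over the members for colon against ileum under vancomycin, near 0 with all arrays, was -0.135 to 0.165 with 1 array left out, below 0 without colon vancomycin replicate 11 or ileum vancomycin replicate 13. Counts of members that passed moved as follows. With array weights, 1 passed for vancomycin in colon (Cd248), 2 for the difference between the vancomycin effects and 6 for colon against ileum under vancomycin. For colon against ileum under vancomycin the count, 1 with all arrays, was 0 with only the groups compared, 2 with centring on array medians and 2 without the dimmest 33.3% of probe sets. With 1 array left out, the count was 0 to 3 for vancomycin in colon, 0 for vancomycin in ileum, 0 to 2 for the difference between the effects, 10 to 16 for colon against ileum without antibiotic and 0 to 4 for colon against ileum under vancomycin. The median over the members in the difference between the effects was 0.40 to 0.86 in the same runs.

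Replicate numbers shared by colon and ileum were not stated to mark the same mouse. The deviations of same-numbered arrays correlated at -0.016 to 0.236, above 0.1 for 11, 13 and 14 but not for 1, 2 and 3, and numbers 2 and 3 did not correlate best with their own number, so the arrays were not treated as pairs. With the replicate number as a block, 16 members passed for colon against ileum without antibiotic (Col1a1 lost and Eln gained), 3 for colon against ileum under vancomycin (Col3a1 and Postn higher, Sparc lower) and 2 for the difference between the effects (Cd248 and Sparc), and as a random block 0 for vancomycin in either tissue.

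With 3 or 4 arrays per group and no detection calls, low levels such as those of Pi16 and Col5a1 could not be set against background. No batch, cage or date was given, and whole-tissue RNA does not separate fibroblasts from other cells.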

Other observations

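Csn3, the milk protein kappa-casein, lay on the list kept for the tumour graft. It was at 7.37, 8.31 and 13.53 in colons with vancomycin (replicates 11, 13 and 14), against 7.63, 7.67, 7.31 and 10.28 in colons without antibiotic. In ilea it was at 14.39, 8.03 and 9.85 with vancomycin, against 7.50, 7.55 and 7.74 without antibiotic. Erbb2 on the same arrays spanned only 11.02 to 11.69. Ptprc, the pan-leukocyte marker CD45, was at 14.87 in ileum vancomycin replicate 11, against 11.79 to 13.16 in the other 5 ilea.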
